A study of Homo sapiens with 12 samples.

Results

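Long intergenic noncoding RNAs that were expressed in T47D breast cancer cells were taken as the genes whose symbol begins with LINC and that reached at least 1 CPM (reads of a gene scaled to the total of the library) in at least 3 libraries. The table held 27864 genes, of which 1668 had such a symbol. Of those 1668, 856 had no read in any library and 132 met the rule, and these 132 members, chosen by that level alone, are described here. The cells were T47D, an established estrogen receptor-positive luminal breast cancer line that carries an activating mutation of PIK3CA. They were treated for 48 h in 4 groups, namely an NF1 knockout line (NF1KO) with 3 µM BYL719 (3 libraries), NF1KO with the vehicle DMSO (2 libraries), a control line (CTRL) with 3 µM BYL719 (3 libraries) and CTRL with DMSO (3 libraries). BYL719 (alpelisib) inhibits the alpha isoform of PI3K, and NF1 encodes neurofibromin, which switches RAS off. A replicate 1 of NF1KO DMSO is not analysed here. The labels do not say whether a line was 1 clone or how CTRL was made, so a difference between the lines cannot be told apart from other differences between these cultures. Nor do they say that replicates were separate cultures, so p-values measure the spread between these libraries, which may be technical.

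LINC symbols are given to long noncoding genes that lie between coding genes and have no better established name. Their RNAs are spliced and polyadenylated like messenger RNAs but hold no long reading frame. A few are known to act on transcription at their own locus, others bind proteins or microRNAs elsewhere in the cell, some turned out to encode short peptides, and most have no known role. As a class they are scarcer and more restricted to particular cell types than messenger RNAs, and in luminal breast cancer several are transcribed under the estrogen receptor.

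The 11 libraries held 53283945 to 60148876 counts, so that 1 read was worth 0.0166 to 0.0188 CPM. NF1 itself stood at 0.891, 0.547 and 0.400 CPM in NF1KO BYL719, 0.480 and 0.471 CPM in NF1KO DMSO, 214, 147 and 152 CPM in CTRL BYL719 and 289, 209 and 249.99 CPM in CTRL DMSO libraries, as the labels say. All 9 luminal markers examined were well expressed, the lowest being EPCAM at 121 to 149 CPM, and ESR1 lay between 181 and 361 CPM. Of 12 markers of fibroblasts, endothelium, blood and basal cells, 11 stayed at or under 1.07 CPM in each library. The exception was COL1A1 at 16.7 to 55.2 CPM. The summed level of those 12 markers was 18.3 to 23.1 CPM in NF1KO BYL719, 27.6 to 27.8 CPM in NF1KO DMSO, 27.2 to 37.4 CPM in CTRL BYL719 and 50.0 to 56.0 CPM in CTRL DMSO libraries. Most of that sum was COL1A1, with group means of 19.5, 25.8, 31.3 and 52.2 CPM in the same order. PECAM1, CD14 and TP63 went the other way between the lines, with higher means in NF1KO. The part of these markers in the results was not tested. In bulk RNA, fewer expressing cells and less RNA per cell cannot be told apart.

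Together the 132 members took between 0.0731% and 0.0948% of a library's counts. Their summed level was 798, 817 and 773 CPM in NF1KO BYL719, 746 and 731 CPM in NF1KO DMSO, 948, 885 and 869.6 CPM in CTRL BYL719 and 797, 734 and 763 CPM in CTRL DMSO libraries. The CTRL BYL719 libraries thus held the highest sums and did not overlap any other group. A member's mean level ran from 0.663 CPM (LINC01719) to 125 CPM (LINC00674), with a median of 2.97 CPM, and 115 of the 132 lay under 10 CPM. The threshold was met in all 11 libraries by 91 members and in fewer by 41. At 0.5 CPM in 3 libraries the rule would have held 184 genes, and at 2 CPM it would have held 94. Just inside it by the third-highest library were LINC00653 at 1.002 CPM, LINC02731 at 1.013 CPM and LINC01389 at 1.014 CPM, and just outside it were LINC00685 at 0.9848 CPM, LINC00482 at 0.9809 CPM and LINC02484 at 0.9729 CPM.

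The rule used levels in all groups together, and 15 members met it only through the libraries of a particular line or treatment. LINC01016, LINC01389, LINC01719 and LINC01801 reached 1 CPM in CTRL BYL719 libraries alone. LINC00853, LINC02303, LINC02361 and LINC02606 reached it under BYL719 in both lines but not in DMSO, and LINC01419 in DMSO alone. LINC00536, LINC01136, LINC01194 and LINC01234 reached it in NF1KO alone, and LINC00472 and LINC01694 in CTRL alone. A member that enters in this way has to differ between groups, so for these 15 levels and log2 fold changes are given as a description, with no p-value.

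RefSeq types 130 of the members as long noncoding RNA genes, the exceptions being the pseudogene LINC00680-GUSBP4 and the readthrough LINC02210-CRHR1, which is typed as protein-coding. The 126 members that GENCODE v29 annotates had a median exonic length of 2748 bases and a median of 3 exons in their longest transcript. By now 14 members carry another symbol, among them LINC01578 (CHASERR), LINC01137 (LITATS1), LINC01136 (BTG2-DT), LINC00638 (VESTAR) and LINC00888 (SNHG33). The ranges of 18 members meet that of a protein-coding gene, and the median distance to the nearest one is 17850 bases. Reads can be misassigned for some. In 17 members another gene with at least 20% of the member's counts overlaps the range, mostly on the opposite strand, and it is not given in the sources used here whether counting used the strand. In 11 members more than 10% of the 76-base windows of the longest transcript also occur elsewhere in the transcriptome, and these are named as such where their values are given.

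Per exonic kilobase by GENCODE v29 lengths, LINC00674 stood far above the rest, at 170.0 CPM per kb against 11.5 for LINC01578 and a median of 1.08 over the members. The annotation behind the counts is not given, so the exons counted may differ from those lengths, and this was not tested. In CPM, the most abundant member after LINC00674 was LINC01578, known as CHASERR, which in mouse restrains its neighbour Chd2. It had 70.9, 61.1 and 57.1 CPM in NF1KO BYL719, 59.7 and 58.3 CPM in NF1KO DMSO, 70.3, 69.7 and 68.2 CPM in CTRL BYL719 and 60.2, 55.6 and 48.3 CPM in CTRL DMSO libraries. BYL719 raised it in CTRL by a log2 change of 0.34 ± 0.09 (adjusted p = 0.00923, edgeR quasi-likelihood test adjusted by Benjamini-Hochberg over the 16081 genes tested, as throughout), and the libraries did not overlap. LINC00674 varied little, with 122, 119.5 and 103 CPM in NF1KO BYL719, 125 and 115 CPM in NF1KO DMSO, 137, 130.2 and 130.5 CPM in CTRL BYL719 and 135, 125 and 129 CPM in CTRL DMSO libraries. Its log2 change in NF1KO under BYL719 was -0.21 ± 0.07 (adjusted p = 0.0412), a call lost in 12 of 20 alternatives, with adjusted p up to 0.135.

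Of the other abundant members, LINC00648 and LINC00205 differed between the lines under either treatment. With BYL719, LINC00648 was called in both lines and LINC00205 in CTRL alone. LINC00648 had 27.1, 26.2 and 26.6 CPM in NF1KO BYL719, 15.8 and 15.6 CPM in NF1KO DMSO, 33.9, 30.6 and 33.7 CPM in CTRL BYL719 and 21.1, 21.2 and 21.3 CPM in CTRL DMSO libraries. Its levels under BYL719 lay above those in DMSO in both lines, by 0.76 ± 0.07 in NF1KO (adjusted p = 7.95e-05) and 0.63 ± 0.06 in CTRL (adjusted p = 8.58e-06). LINC00205 had 22.8, 26.7 and 22.9 CPM in NF1KO BYL719, 20.9 and 19.7 CPM in NF1KO DMSO, 41.6, 38.6 and 39.2 CPM in CTRL BYL719 and 27.7, 25.8 and 25.4 CPM in CTRL DMSO libraries. It was lower in NF1KO under either treatment, with log2 differences of -0.72 ± 0.08 in BYL719 (adjusted p = 1.17e-05) and -0.38 ± 0.09 in DMSO (adjusted p = 0.00965), and the DMSO call was lost without NF1KO DMSO replicate 3 (adjusted p = 0.117). LINC01278 rose under BYL719 in CTRL by 0.63 ± 0.09 (adjusted p = 0.000114), and LINC00221 fell there by 0.35 ± 0.06 (adjusted p = 0.000825). LINC00938 was lower in NF1KO under BYL719, with a log2 difference of -0.49 ± 0.08 (adjusted p = 0.000624). LINC02210, at 28.2, 28.99 and 27.9 CPM in NF1KO BYL719 and 27.2, 27.6 and 28.04 CPM in CTRL DMSO, and LINC01511, at 12.3 to 17.0 CPM over all libraries, were called in no comparison.

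RefSeq gives a promoter window, 250 bases before to 50 bases after the annotated start, for 90 of the 132 members, in 105 entries on GRCh38.p14. A set of 6 short motifs was searched in them on both strands. The share of entries with a match was 0% for the forkhead motif GTAAACA (3.42% of all 35116 promoter entries), 5.71% for the AP-1 motif TGANTCA (7.71%), 0% for the full estrogen response element, that is GGTCA, any 3 bases and TGACC (0.057%), 14.3% for a lone arm of it, AGGTCA (13.8%), 13.3% for the ETS motif CCGGAAG (10.3%) and 8.57% for the E-box CACGTG (7.26%). A full element that is preceded by A or followed by T also holds the lone arm. Windows are shown for 3 members whose RNA stood higher under BYL719 in CTRL than in any other group, for 2 that fell with BYL719 in CTRL, and for 1 that stood higher in NF1KO, each 5′ to 3′ on the gene's strand with motif matches in capitals. LINC01016 (chr6:33896858-33897157, minus strand) has an AP-1 match starting 196 bases before the start, LINC00836 (chr10:25651462-25651761, plus strand) has another at base 23 after it, and LINC00654 (chr20:5504547-5504846, minus strand) has an E-box 39 bases before it. No match was found in the windows of LINC00472 (chr6:71420696-71420995, minus strand), LINC00664 (chr19:21483465-21483764, plus strand) or LINC01234 (chr12:113773634-113773933, minus strand).
LINC01016: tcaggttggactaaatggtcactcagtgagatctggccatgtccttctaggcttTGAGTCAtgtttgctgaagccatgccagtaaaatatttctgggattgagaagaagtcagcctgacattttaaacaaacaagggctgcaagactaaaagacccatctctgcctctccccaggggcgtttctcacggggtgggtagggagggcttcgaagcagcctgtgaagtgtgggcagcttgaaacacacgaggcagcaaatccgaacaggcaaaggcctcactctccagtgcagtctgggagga
LINC00836: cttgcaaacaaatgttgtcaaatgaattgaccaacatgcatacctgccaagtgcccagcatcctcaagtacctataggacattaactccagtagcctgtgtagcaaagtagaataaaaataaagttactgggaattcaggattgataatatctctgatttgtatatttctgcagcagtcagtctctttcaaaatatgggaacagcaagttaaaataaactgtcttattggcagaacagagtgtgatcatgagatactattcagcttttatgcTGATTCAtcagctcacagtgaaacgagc
LINC00472: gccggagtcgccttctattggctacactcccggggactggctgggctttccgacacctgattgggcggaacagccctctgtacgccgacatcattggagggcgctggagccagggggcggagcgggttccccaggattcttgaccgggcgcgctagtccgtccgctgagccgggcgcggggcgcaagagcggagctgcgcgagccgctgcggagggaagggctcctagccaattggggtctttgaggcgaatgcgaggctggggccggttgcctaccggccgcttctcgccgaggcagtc
LINC00664: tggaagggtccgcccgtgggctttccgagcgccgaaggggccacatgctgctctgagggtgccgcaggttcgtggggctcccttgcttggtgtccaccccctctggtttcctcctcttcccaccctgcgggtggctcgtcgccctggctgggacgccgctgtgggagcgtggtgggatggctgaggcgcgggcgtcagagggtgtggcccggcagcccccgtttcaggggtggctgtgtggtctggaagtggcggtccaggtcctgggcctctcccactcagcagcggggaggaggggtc
LINC00654: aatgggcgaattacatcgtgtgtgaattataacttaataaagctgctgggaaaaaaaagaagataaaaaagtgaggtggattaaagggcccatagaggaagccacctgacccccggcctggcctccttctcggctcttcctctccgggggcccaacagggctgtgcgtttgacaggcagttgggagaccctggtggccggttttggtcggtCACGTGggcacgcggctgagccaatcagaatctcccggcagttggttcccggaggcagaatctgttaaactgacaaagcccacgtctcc
LINC01234: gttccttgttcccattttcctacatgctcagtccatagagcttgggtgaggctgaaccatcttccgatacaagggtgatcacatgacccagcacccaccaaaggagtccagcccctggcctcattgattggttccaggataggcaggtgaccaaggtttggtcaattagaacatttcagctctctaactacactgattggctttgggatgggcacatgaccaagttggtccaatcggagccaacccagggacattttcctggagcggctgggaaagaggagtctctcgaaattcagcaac

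Between NF1KO and CTRL in DMSO, that is before drug, 30 of the 132 members were called (22.7%), against 20.3% of all genes tested. Of these, 13 members were higher in NF1KO (9.85%, background 9.99%) and 17 were lower (12.9%, background 10.3%), and 6 of the 30 belong to the 15 whose entry needed a difference. The members' median log2 difference was -0.06 and that of all genes -0.01. These shares are near the background. The count rests on few libraries, since leaving out an NF1KO DMSO library gave 15 (replicate 2) or 17 (replicate 3).

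The largest difference toward NF1KO was that of LINC00536 (chr8:115950511-116325059, minus strand), whose nearest coding gene is that of the transcription factor TRPS1. It had 1.35, 1.33 and 1.69 CPM in NF1KO BYL719, 1.62 and 1.78 CPM in NF1KO DMSO, 0.118, 0.167 and 0.138 CPM in CTRL BYL719 and 0.155, 0.128 and 0.167 CPM in CTRL DMSO libraries. LINC00536 entered through NF1KO alone, so entry itself favoured a separation of the lines. As a description, its log2 differences were 3.35 ± 0.23 in BYL719 (10.2-fold) and 3.49 ± 0.24 in DMSO (11.2-fold). LINC01234 (chr12:113744577-113773683, minus strand) had 1.101, 1.31 and 1.38 CPM in NF1KO BYL719, 1.33 and 1.27 CPM in NF1KO DMSO, 0.338, 0.484 and 0.397 CPM in CTRL BYL719 and 0.447, 0.547 and 0.501 CPM in CTRL DMSO libraries. Its log2 differences were 1.64 ± 0.20 in BYL719 and 1.38 ± 0.21 in DMSO, and it too entered through NF1KO alone. LINC01194, which entered in the same way, stood at 1.27 and 1.503 CPM in NF1KO DMSO and 0.636, 0.948 and 0.835 CPM in CTRL DMSO.

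LINC01116 (chr2:176611437-176637609, minus strand), whose nearest coding gene is MTX2, had 8.298, 8.79 and 7.98 CPM in NF1KO BYL719, 8.42 and 9.44 CPM in NF1KO DMSO, 4.06, 4.82 and 5.21 CPM in CTRL BYL719 and 5.102, 4.98 and 4.38 CPM in CTRL DMSO libraries. It was higher in NF1KO by 0.83 ± 0.11 in BYL719 (adjusted p = 8.27e-05) and 0.89 ± 0.12 in DMSO (adjusted p = 0.000261), and BYL719 did not move it past the threshold in either line. MTX2 was higher in NF1KO too, by 0.27 in BYL719 (adjusted p = 0.00704) and 0.27 in DMSO (adjusted p = 0.0262). LINC00667 was higher in NF1KO in DMSO, at 2.36 and 2.46 CPM in NF1KO and 1.05, 1.29 and 1.35 CPM in CTRL libraries, by 0.97 ± 0.20 (adjusted p = 0.00424). LINC01671 was higher as well, at 5.81 and 5.83 CPM in NF1KO and 3.25, 3.48 and 2.73 CPM in CTRL libraries, by 0.88 ± 0.13 (adjusted p = 0.000472).

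Of the members that were lower in NF1KO, LINC02475 (chr4:44016861-44022061, plus strand) had 2.41, 2.99 and 3.11 CPM in NF1KO BYL719, 3.08 and 2.699 CPM in NF1KO DMSO, 6.02, 6.66 and 6.73 CPM in CTRL BYL719 and 6.53, 7.75 and 9.93 CPM in CTRL DMSO libraries. It fell in NF1KO by 1.19 ± 0.16 in BYL719 (adjusted p = 7.69e-05) and by 1.48 ± 0.18 in DMSO (adjusted p = 0.000108) on the log2 scale. The drug did not move it past the threshold in either line. LINC00885 (chr3:196142636-196160890, plus strand) had 2.36, 2.23 and 2.58 CPM in NF1KO BYL719, 3.75 and 4.38 CPM in NF1KO DMSO, 4.87, 5.84 and 5.11 CPM in CTRL BYL719 and 8.25, 9.003 and 9.67 CPM in CTRL DMSO libraries. Its difference between the lines was -1.14 ± 0.12 in BYL719 (adjusted p = 1.04e-05) and -1.14 ± 0.13 in DMSO (adjusted p = 5.93e-05). LINC00885 also fell with BYL719 in both lines, and each of the 4 groups kept a range of its own, the lowest in NF1KO BYL719 and the highest in CTRL DMSO. LINC01694 stood at 0.611, 0.639 and 0.691 CPM in NF1KO BYL719, 0.498 and 0.6702 CPM in NF1KO DMSO, 1.45, 1.49 and 1.42 CPM in CTRL BYL719 and 1.12, 1.28 and 0.872 CPM in CTRL DMSO libraries.

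Under BYL719, NF1KO differed from CTRL in 52 of 132 members (39.4%), against 39.8% of all genes tested. The split was uneven, with 17 members higher in NF1KO (12.9%, background 20.8%) and 35 lower (26.5%, background 19.0%). The median log2 difference was -0.17 for the members and 0.00 for all genes. Of the 52, 11 belong to the 15 whose entry needed a difference, 4 of them among the higher and 7 among the lower. Every member that was lower in DMSO (17 of 17) was also lower under BYL719, where these 17 make up 48.6% of the 35. Of the 13 that were higher in DMSO, 8 (61.5%) were higher under BYL719 as well, which is 47.1% of the 17 there. No member was called in opposite directions, and the 2 comparisons share no library. The shared members include LINC00472 and LINC01694, which entered through CTRL alone, and LINC00536, LINC01194 and LINC01234, which entered through NF1KO alone. For these, entry itself favoured the same direction under both treatments. The matching overlap over all genes was not computed.

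**Figure D1:**
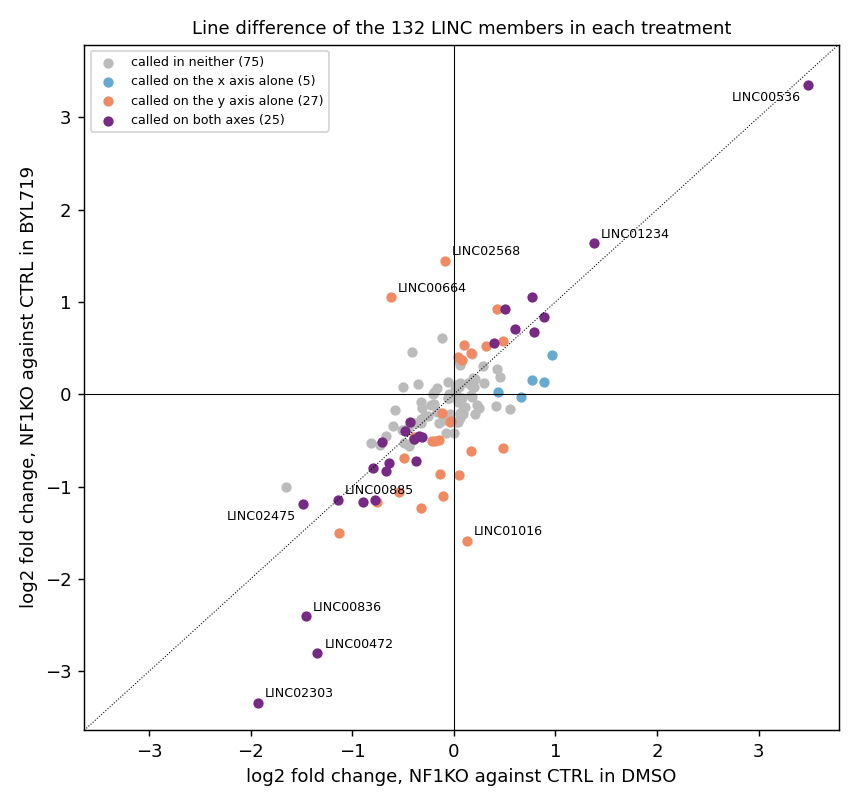
Log2 fold change of NF1KO against CTRL for each of the 132 members, in DMSO on the x axis and in BYL719 on the y axis, coloured by where the member was called. LINC00536 lies at 3.35 in BYL719 and 3.49 in DMSO, and LINC02303, LINC00472 and LINC00836 lie below the dotted line of equal differences, being lower still under BYL719.

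The members that were lowest in NF1KO relative to CTRL under BYL719 stood high in CTRL BYL719 libraries, which this comparison shares with that of BYL719 and DMSO in CTRL. LINC02303 (chr14:45706258-45715602, minus strand) had 0.873, 1.13 and 0.964 CPM in NF1KO BYL719, 0.185 and 0.127 CPM in NF1KO DMSO, 8.15, 11.2 and 10.6 CPM in CTRL BYL719 and 0.584, 0.784 and 0.427 CPM in CTRL DMSO libraries. Its log2 difference between the lines was -3.34 ± 0.19 in BYL719 and -1.93 ± 0.37 in DMSO. LINC00472 (chr6:71407864-71420745, minus strand), an RNA known for lower levels in more aggressive breast tumours, had 0.384, 0.511 and 0.218 CPM in NF1KO BYL719, 0.258 and 0.417 CPM in NF1KO DMSO, 3.11, 2.49 and 2.21 CPM in CTRL BYL719 and 1.05, 0.784 and 0.742 CPM in CTRL DMSO libraries. It stood at -2.80 ± 0.27 in BYL719 and -1.34 ± 0.35 in DMSO, and OGFRL1, the nearest coding gene, was lower in NF1KO too, with log2 differences of -0.79 (adjusted p = 1.84e-05) and -0.60 (adjusted p = 0.00117). LINC01801 stood at 0.769, 0.675 and 0.582 CPM in NF1KO BYL719 and 1.42, 1.804 and 1.54 CPM in CTRL BYL719 libraries, a log2 difference of -1.23 ± 0.20.

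LINC00836 (chr10:25651712-25732935, plus strand) met the threshold in all libraries and had 1.904, 2.32 and 2.29 CPM in NF1KO BYL719, 1.38 and 1.65 CPM in NF1KO DMSO, 9.95, 14.4 and 10.1 CPM in CTRL BYL719 and 4.07, 4.26 and 4.18 CPM in CTRL DMSO libraries. It was lower in NF1KO, with log2 differences of -2.40 ± 0.16 in BYL719 (adjusted p = 2.05e-07) and -1.46 ± 0.19 in DMSO (adjusted p = 0.000186). Its coding neighbour GPR158, an orphan receptor gene, went the other way between the lines, at 0.87 (adjusted p = 1.23e-05) and 0.97 (adjusted p = 3.2e-05). With BYL719 in CTRL both genes rose, GPR158 by 0.61 (adjusted p = 0.000231). LINC01004 had 0.419, 0.693 and 0.873 CPM in NF1KO BYL719 and 3.15, 1.17 and 1.29 CPM in CTRL BYL719 libraries, the highest being CTRL replicate 1. Its difference of -1.51 ± 0.46 (adjusted p = 0.0212) rested on that library, since without it the value was -0.90 (adjusted p = 0.0959), and the call was also lost without NF1KO BYL719 replicate 1 or 2 (adjusted p up to 0.0959).

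Toward NF1KO, LINC01239 had 2.99, 2.61 and 2.27 CPM in NF1KO BYL719 and 1.39, 1.28 and 1.105 CPM in CTRL BYL719 libraries, a rise of 1.06 ± 0.19 (adjusted p = 0.000633). LINC00467 (chr1:211382755-211432535, plus strand), whose RNA is known to encode a short mitochondrial peptide, had 12.7, 11.8 and 14.7 CPM in NF1KO BYL719, 14.5 and 14.8 CPM in NF1KO DMSO, 6.53, 7.07 and 7.04 CPM in CTRL BYL719 and 10.4, 10.4 and 10.3 CPM in CTRL DMSO libraries. It was higher in NF1KO by 0.93 ± 0.09 in BYL719 (adjusted p = 5.93e-06) and 0.50 ± 0.10 in DMSO (adjusted p = 0.00339). The log2 change with BYL719 was -0.17 ± 0.10 in NF1KO (adjusted p = 0.261) and -0.59 ± 0.09 in CTRL (adjusted p = 0.000243). The difference of these effects, 0.42 ± 0.13, did not pass (adjusted p = 0.0733).

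BYL719 in CTRL moved more members than any other comparison, and mostly upward. Of 132 members 58 were called (43.9%), against 44.4% of all genes tested, so the total is at the background. By direction, 48 rose (36.4%, background 22.6%) and 10 fell (7.58%, background 21.8%). The median log2 change was 0.22 for the members and 0.00 for all genes, and 101 of 132 lay above 0. Of the 48 that rose, 8 are among the 15 whose entry needed a difference. Among the 66 members of higher mean level, 27 rose and 6 fell, and among the 66 of lower mean level 21 rose and 4 fell. Leaving out any library gave 51 to 59 calls.

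**Figure D2:**
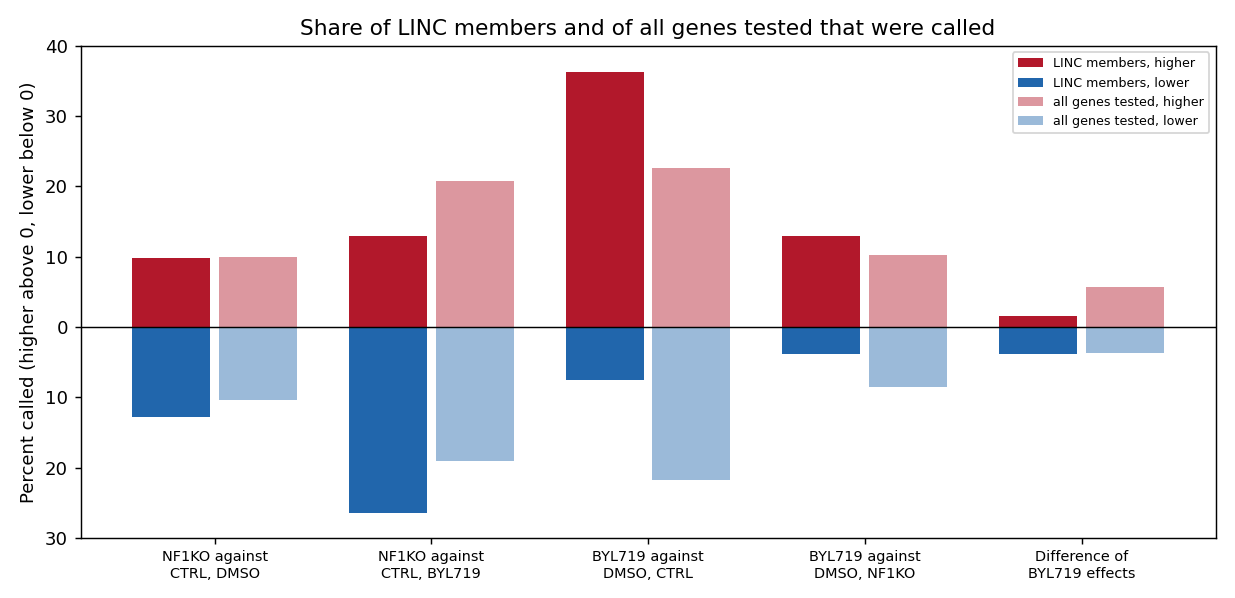
Percent of the 132 members (dark bars) and of all 16081 genes tested (pale bars) called higher (red, above 0) or lower (blue, below 0) in each comparison. For BYL719 in CTRL, 36.4% of members and 22.6% of all genes were higher, and 7.58% and 21.8% were lower.

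The 2 members that stood furthest above their DMSO level under BYL719 in CTRL were under 1 CPM in each DMSO library. LINC02303, given above, stood at 8.15, 11.2 and 10.6 CPM in CTRL BYL719 and 0.584, 0.784 and 0.427 CPM in CTRL DMSO libraries, a log2 change of 4.06 ± 0.21. LINC01016 (chr6:33889511-33896907, minus strand), known as a target of the estrogen receptor in breast cancer cells, had 0.664, 0.985 and 0.545 CPM in NF1KO BYL719, 0.258 and 0.254 CPM in NF1KO DMSO, 2.06, 2.14 and 2.399 CPM in CTRL BYL719 and 0.189, 0.2005 and 0.316 CPM in CTRL DMSO libraries. Its log2 change was 1.51 ± 0.32 in NF1KO and 3.22 ± 0.26 in CTRL. LINC00472 changed by 1.60 ± 0.25 and LINC01801 by 1.58 ± 0.21 in CTRL. LINC00836 rose in CTRL by 1.46 ± 0.15 (adjusted p = 1.03e-05) and overlapped none of the other groups. LINC00476, now ERCC6L2-AS1, had 2.98, 2.102 and 2.12 CPM in CTRL BYL719 and 0.876, 0.747 and 1.002 CPM in CTRL DMSO libraries and rose by 1.46 ± 0.19 (adjusted p = 6.81e-05). ERCC6L2 overlaps it on the opposite strand with 860% of its counts and was not called there (0.14, adjusted p = 0.409).

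Among the 10 that fell in CTRL, LINC02568 (chr15:63390230-63437536, plus strand) had 0.908, 1.11 and 1.44 CPM in NF1KO BYL719, 1.46 and 1.25 CPM in NF1KO DMSO, 0.474, 0.409 and 0.3797 CPM in CTRL BYL719 and 1.36, 1.39 and 1.58 CPM in CTRL DMSO libraries. The CTRL BYL719 libraries were the lowest and overlapped no other group, a fall of 1.77 ± 0.21 on the log2 scale against CTRL DMSO (adjusted p = 3.37e-05). CA12, a carbonic anhydrase gene 8384 bases away, fell in CTRL as well, by 0.52 (adjusted p = 0.000181). LINC00664 (chr19:21483715-21503238, plus strand), in a cluster of zinc finger genes, had 1.57, 1.204 and 1.51 CPM in NF1KO BYL719, 1.48 and 1.36 CPM in NF1KO DMSO, 0.812, 0.595 and 0.656 CPM in CTRL BYL719 and 2.63, 1.84 and 2.06 CPM in CTRL DMSO libraries. It fell by 1.66 ± 0.19 in CTRL (adjusted p = 2.94e-05). LINC00654 (chr20:5496067-5504596, minus strand) had 3.49, 4.73 and 3.47 CPM in NF1KO BYL719, 6.79 and 6.702 CPM in NF1KO DMSO, 2.47, 2.59 and 3.003 CPM in CTRL BYL719 and 5.57, 6.69 and 6.59 CPM in CTRL DMSO libraries. It fell by 0.79 ± 0.15 in NF1KO (adjusted p = 0.00431) and by 1.22 ± 0.14 in CTRL (adjusted p = 2.77e-05), and GPCPD1, the nearest coding gene, fell in both lines too, by 0.48 in NF1KO (adjusted p = 0.0171) and by 0.34 in CTRL (adjusted p = 0.0244).

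LINC01419 stood at 0.559, 0.748 and 0.873 CPM in NF1KO BYL719, 1.77 and 1.23 CPM in NF1KO DMSO, 0.541, 0.502 and 0.3797 CPM in CTRL BYL719 and 1.43, 1.66 and 1.800 CPM in CTRL DMSO libraries. LINC00885 fell by 0.77 ± 0.13 in NF1KO (adjusted p = 0.00252) and by 0.77 ± 0.11 in CTRL (adjusted p = 0.000158). LINC00641 fell in CTRL by 0.69 ± 0.16 (adjusted p = 0.00424), with 4.06, 3.24 and 2.796 CPM in BYL719 and 6.32, 4.96 and 5.05 CPM in DMSO libraries, and its neighbour HNRNPC, a pre-mRNA binding protein gene, fell by 0.64 (adjusted p = 2.1e-05).

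**Figure D3:**
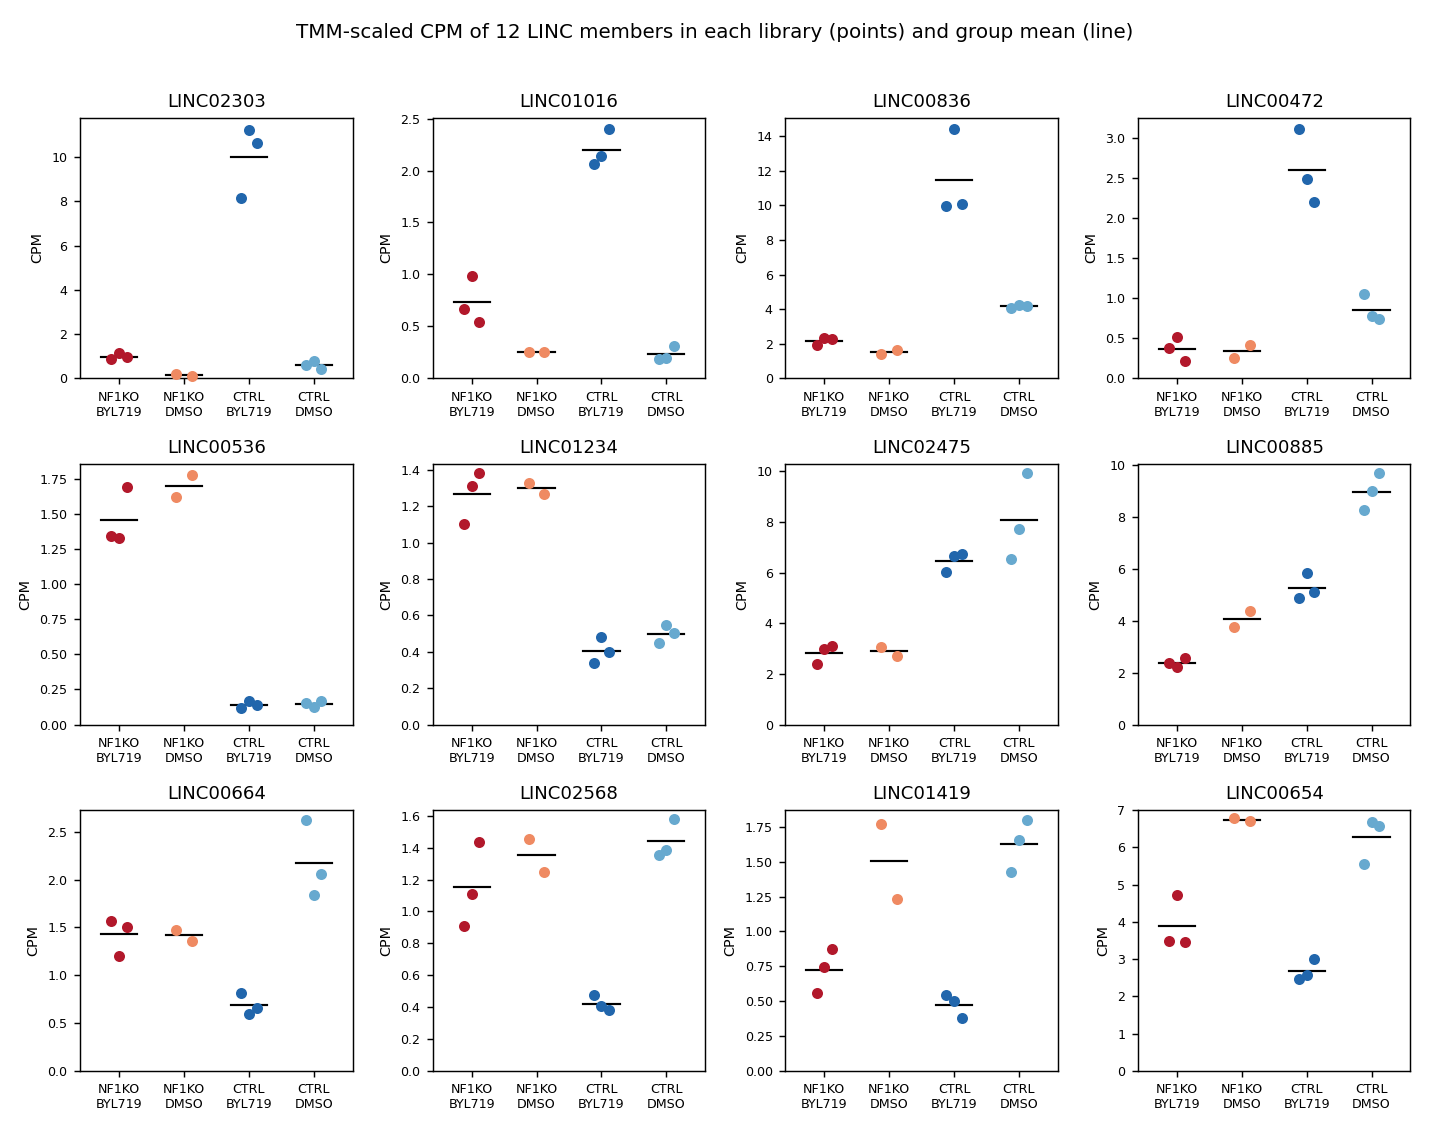
TMM-scaled CPM of 12 members in each library (points) with the group mean (line), for NF1KO BYL719, NF1KO DMSO, CTRL BYL719 and CTRL DMSO. LINC02303, LINC01016, LINC00836 and LINC00472 are highest in CTRL BYL719, LINC00536 and LINC01234 are higher in NF1KO, and LINC00664 and LINC02568 are lowest in CTRL BYL719.

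In NF1KO, BYL719 changed 22 of 132 members (16.7%), against 18.7% of all genes tested. Of these 17 rose (12.9%, background 10.3%) and 5 fell (3.79%, background 8.47%), the median log2 change was 0.14 for the members and 0.01 for all genes, and 90 of 132 lay above 0. Of the 22, 5 belong to the 15 whose entry needed a difference. Leaving out an NF1KO DMSO library gave 10 (replicate 2) or 8 (replicate 3), and 53 were called when replicate numbers entered as blocks in each line. With those blocks NF1KO BYL719 replicate 1 has no DMSO partner, so the NF1KO effect rests on the libraries numbered 2 and 3. That fit also leaves fewer residual degrees of freedom. Of the 17 rises, 16 (94.1%) were also called upward in CTRL, where they make up 33.3% of 48, and of the 5 falls 4 (80.0%) were also called downward in CTRL, or 40.0% of 10. No member was called in opposite directions in the lines, and these 2 comparisons share no library. The shared rises include LINC00853, LINC02303 and LINC02606, which entered under BYL719 in both lines, and the shared falls include LINC01419, which entered in DMSO alone. For these, entry itself favoured the same direction in both lines. LINC01016, also a shared rise, entered through CTRL BYL719 alone. How often calls overlapped over all genes was not computed.

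LINC00858 had 5.07, 4.52 and 5.11 CPM in NF1KO BYL719, 2.46 and 2.93 CPM in NF1KO DMSO, 4.72, 5.02 and 3.92 CPM in CTRL BYL719 and 3.18, 3.54 and 3.601 CPM in CTRL DMSO libraries. It rose by 0.86 ± 0.15 in NF1KO (adjusted p = 0.00218) and by 0.41 ± 0.13 in CTRL (adjusted p = 0.0204), and the difference did not pass (adjusted p = 0.187). LINC00324 had 1.31, 1.37 and 1.87 CPM in NF1KO BYL719 and 0.738 and 0.598 CPM in NF1KO DMSO libraries, a rise of 1.18 ± 0.30 (adjusted p = 0.0189). LINC00638, now VESTAR, had 1.43, 1.93 and 1.67 CPM in NF1KO BYL719 and 0.849 and 0.706 CPM in NF1KO DMSO libraries, a rise of 1.11 ± 0.23 (adjusted p = 0.00739). Both also rose in CTRL, by 1.21 ± 0.25 and 0.87 ± 0.20 (adjusted p = 0.0018 and 0.00394). In NF1KO the call of LINC00324 was lost without either NF1KO DMSO library or NF1KO BYL719 replicate 3 (adjusted p up to 0.166), and that of LINC00638 without NF1KO DMSO replicate 3 (adjusted p = 0.0967). LINC00853 stood at 1.17, 1.46 and 1.44 CPM in NF1KO BYL719 and 0.646 and 0.688 CPM in NF1KO DMSO libraries.

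Besides LINC00654 and LINC00885, the falls in NF1KO were of LINC01608 (0.83 ± 0.18 on the log2 scale, adjusted p = 0.0093), LINC00857 (a fall of 0.70 ± 0.19, adjusted p = 0.0259) and LINC01419. LINC01608 had 1.05, 1.19 and 1.04 CPM in NF1KO BYL719 and 1.75 and 2.12 CPM in NF1KO DMSO libraries, and its call was lost without NF1KO DMSO replicate 3 (adjusted p = 0.122). LINC00857 had 2.01, 1.57 and 1.31 CPM in NF1KO BYL719 and 2.84 and 2.45 CPM in NF1KO DMSO libraries, and its call was lost without any of 4 libraries, either NF1KO DMSO library and NF1KO BYL719 replicates 2 and 3 (adjusted p up to 0.185).

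**Figure D4:**
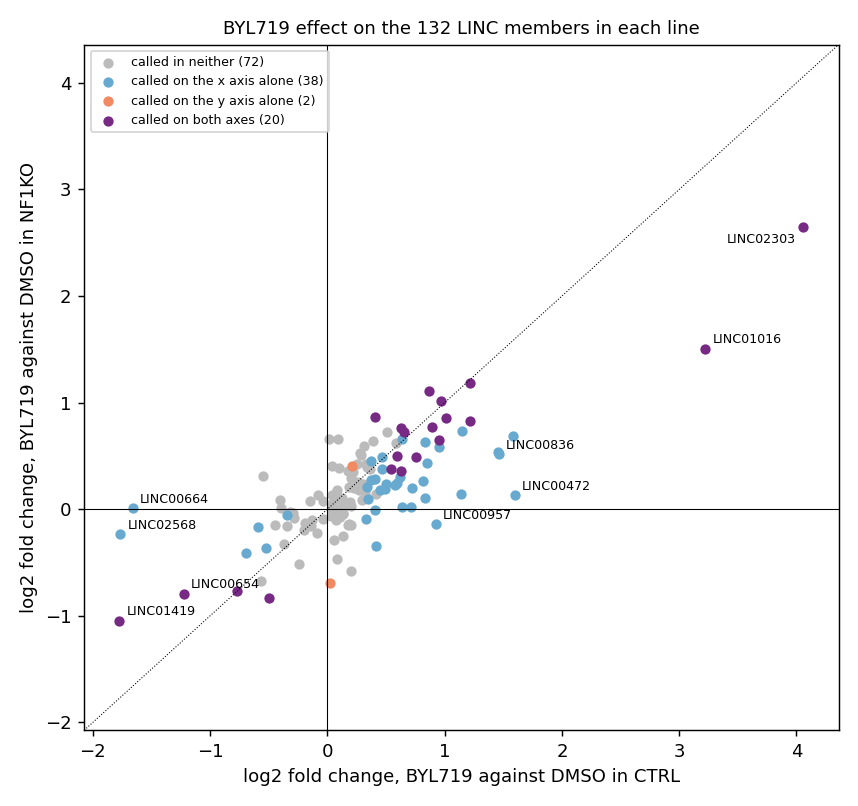
Log2 fold change of BYL719 against DMSO for each of the 132 members, in CTRL on the x axis and in NF1KO on the y axis, coloured by where the member was called, with a dotted line of equal effects. LINC02303 lies at 2.65 in NF1KO and 4.06 in CTRL, and LINC01016 at 1.51 in NF1KO and 3.22 in CTRL, while LINC00664 and LINC02568 fell in CTRL and lie near 0 in NF1KO.

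The BYL719 effect differed between NF1KO and CTRL for 7 of 132 members (5.30%), against 9.39% of all genes tested. In 5 the change was lower in NF1KO (3.79%, background 3.71%) and in 2 it was higher (1.52%, background 5.68%), and the members' median difference was -0.08 against 0.01 for all genes. Of the 7, LINC01016 belongs to the 15 whose entry needed a difference. The count was 13 when replicate numbers entered as blocks, 25 when they did so in each line separately, 11 without CTRL BYL719 replicate 1, and 4 without any of CTRL DMSO replicate 1, CTRL DMSO replicate 2, CTRL BYL719 replicate 3 and NF1KO BYL719 replicate 1. Leaving out an NF1KO DMSO library gave 3 (replicate 2) or 2 (replicate 3).

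LINC00664 and LINC02568 fell with BYL719 in CTRL and were near their DMSO level in NF1KO under BYL719. The effect in NF1KO was 0.01 ± 0.21 for LINC00664 and -0.23 ± 0.21 for LINC02568, and the differences between the lines were 1.67 ± 0.28 (adjusted p = 0.00279) and 1.53 ± 0.30 (adjusted p = 0.00655). Both calls held under each of the alternatives run. CA12 had a difference in the same direction as LINC02568, at 0.52 (adjusted p = 0.013). Under BYL719 both members were accordingly higher in NF1KO than in CTRL, by 1.05 ± 0.20 (adjusted p = 0.00115) and 1.45 ± 0.21 (adjusted p = 0.00018), in comparisons that share the CTRL BYL719 libraries with the drug effect.

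In the other direction, LINC00836 had a difference of -0.94 ± 0.25 (adjusted p = 0.032), a call lost in 8 of 20 alternatives (adjusted p up to 0.186). LINC00957 had 2.04, 2.700 and 3.22 CPM in NF1KO BYL719, 2.603 and 3.24 CPM in NF1KO DMSO, 3.705, 3.98 and 4.21 CPM in CTRL BYL719 and 1.75, 2.26 and 2.26 CPM in CTRL DMSO libraries. Its log2 change with BYL719 was -0.14 ± 0.19 in NF1KO (adjusted p = 0.666) and 0.92 ± 0.17 in CTRL (adjusted p = 0.00104), a difference of -1.06 ± 0.26 (adjusted p = 0.0233). The call did not hold without CTRL BYL719 replicate 3, NF1KO DMSO replicate 3 or NF1KO BYL719 replicate 2 (adjusted p up to 0.143), RASA4CP overlaps the gene on the opposite strand with 187% of its counts, and 10.8% of its windows occur elsewhere. LINC01671 had 4.32, 4.85 and 4.6 CPM in NF1KO BYL719, 5.81 and 5.83 CPM in NF1KO DMSO, 3.91, 4.69 and 4.004 CPM in CTRL BYL719 and 3.25, 3.48 and 2.73 CPM in CTRL DMSO libraries. With BYL719 it stood at -0.34 ± 0.13 on the log2 scale in NF1KO (adjusted p = 0.0862) and rose by 0.41 ± 0.12 in CTRL (adjusted p = 0.0154), a difference of -0.76 ± 0.18 (adjusted p = 0.0189), which was lost without either NF1KO DMSO library (adjusted p up to 0.085). LINC01016, which entered through CTRL BYL719 alone, had a difference of -1.72 ± 0.44. LINC00888, the only called member outside the naming rule, had a difference of -0.69 ± 0.20 (adjusted p = 0.0482), with 5.101, 4.397 and 4.44 CPM in NF1KO BYL719, 5.06 and 4.09 CPM in NF1KO DMSO, 4.03, 5.04 and 5.18 CPM in CTRL BYL719 and 2.78, 3.08 and 2.84 CPM in CTRL DMSO libraries. That call was lost in 12 of 20 alternatives (adjusted p up to 0.277).

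The genes whose log2 CPM over the 11 libraries was most like that of these members, by Pearson's r as a description, were C12orf76 (0.990) for LINC01016, DLX3 (0.992) and EFEMP1 (0.989) for LINC00836, and KIFC1 (0.988) and AURKAP1 (0.986) for LINC02568. For LINC00664 they were LOC102723360 (0.978) and ARHGAP19-SLIT1 (0.976), for LINC00957 EEF1A2 (0.968) and SERPINH1 (0.956), and for LINC01671 WDR74 (0.970) and KRT9 (0.956). All points share the 4 groups, so genes that differ between the same groups score high.

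Other members with a described role moved less. LINC00665 (chr19:36313061-36331753, minus strand), known to encode a micropeptide in breast cancer cells, had 26.3, 27.6 and 30.02 CPM in NF1KO BYL719, 27.5 and 28.6 CPM in NF1KO DMSO, 25.1, 28.3 and 29.2 CPM in CTRL BYL719 and 19.2, 21.3 and 21.9 CPM in CTRL DMSO libraries, so that the CTRL DMSO libraries were the lowest and overlapped none of the others. It was higher in NF1KO in DMSO by 0.43 ± 0.09 (adjusted p = 0.00536), lost without NF1KO DMSO replicate 3 (adjusted p = 0.0597), and rose with BYL719 in CTRL by 0.40 ± 0.08 (adjusted p = 0.00177). LINC00662 was also lowest in CTRL DMSO, with a line difference of 0.77 ± 0.17 in DMSO (adjusted p = 0.00769), lost without NF1KO DMSO replicate 2 (adjusted p = 0.0764), and 0.63 ± 0.16 with BYL719 in CTRL (adjusted p = 0.00597). LOC101927151 overlaps LINC00662 on the opposite strand with 168% of its counts. LINC00839 and LINC00960 were called in no comparison. Group means of LINC00839 were highest in NF1KO BYL719, at 4.45 CPM, and lowest in CTRL DMSO, at 2.93 CPM, and those of LINC00960 were lowest in NF1KO BYL719, at 4.61 CPM, and highest in CTRL BYL719, at 5.52 CPM.

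The coding gene nearest to a member was tested for 89 of the 132, and of these 89 neighbours 48.3% were called for NF1KO against CTRL in BYL719 and 51.7% for BYL719 in CTRL. Under BYL719 in CTRL, 42 of these members were called, 32 of the 42 had the same sign as their neighbour, and in 16 both were called in the same direction, against 7 called in opposite directions. For NF1KO against CTRL in BYL719, 37 were called, 25 had the sign of the neighbour, 18 pairs were called in the same direction and 4 in opposite directions. The counts in the same and in opposite directions were 7 and 4 for NF1KO against CTRL in DMSO (29.2% of neighbours called), 2 and 1 for BYL719 in NF1KO (21.3%), and 1 and 0 for the difference of effects (11.2%). These counts include members whose entry needed a difference. Among them are LINC00472, LINC00853 and LINC01801 for BYL719 in CTRL, and LINC00472, LINC01136 and LINC01719 for the lines in BYL719. Under BYL719 in CTRL 101 of 132 members lay above 0, and the share of equal signs in other gene pairs was not computed. Across the 89 pairs, which are not independent replicates, Pearson's r of the log2 fold changes was 0.057 for BYL719 in CTRL and 0.096 for NF1KO against CTRL in BYL719.

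**Figure D5:**
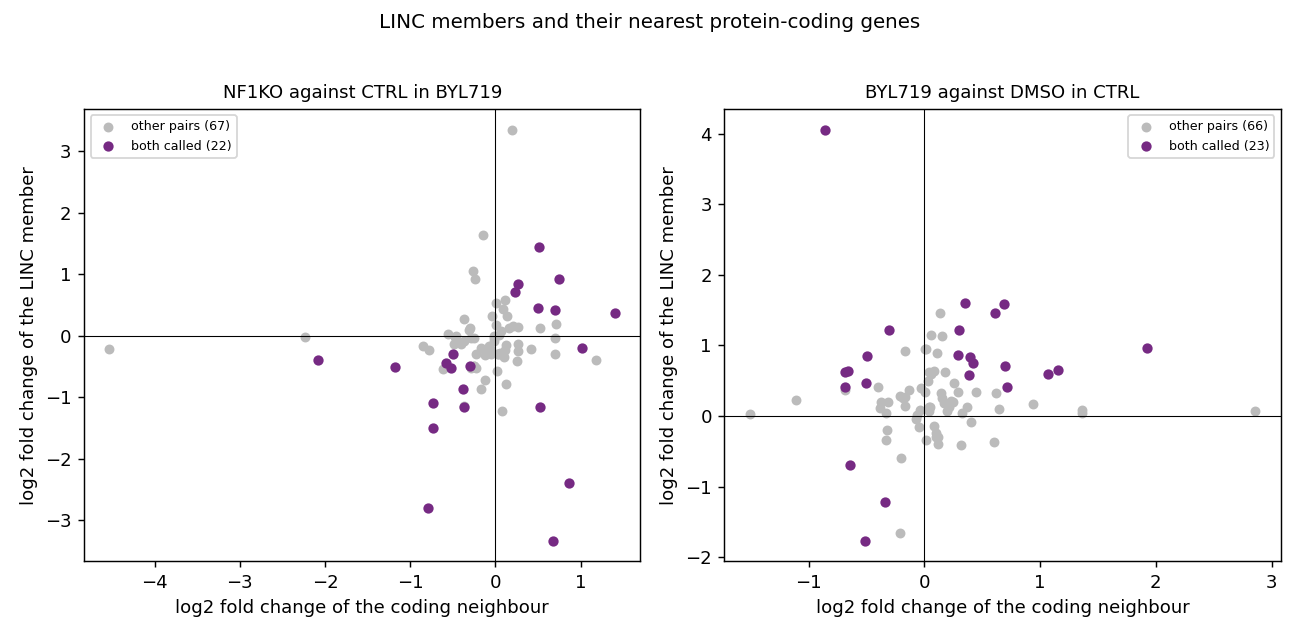
Log2 fold change of each member (y axis) against that of its nearest protein-coding gene (x axis) for the 89 pairs with both tested, for NF1KO against CTRL in BYL719 (left) and BYL719 against DMSO in CTRL (right). Purple points are pairs with both called, 22 on the left and 23 on the right. Of these, the 4 pairs of opposite direction on the left have a lower member and a higher neighbour, and the 7 on the right have a higher member and a lower neighbour.

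Other classes of long noncoding RNA are given side by side for BYL719 in CTRL, without a test of the difference, where 22.6% of all genes tested rose and 21.8% fell. Of 430 tested genes with an antisense symbol, 108 rose (25.1%) and 34 fell (7.91%), with a median log2 change of 0.25, against 0.22 for the members. The share that rose is near that of all genes, while the share that fell is near the 7.58% of the members. Members needed at least 1 CPM in 3 libraries, while these classes and all genes tested passed only the filter of the test. UCA1, for example, was tested at a mean of 0.320 CPM. The shares thus stand on unlike levels, and what this adds to the differences was not tested. Of 52 divergent transcripts, 12 rose (23.1%) and 6 fell (11.5%), with a median of 0.03. Of 24 microRNA host genes, 2 rose (8.33%) and 3 fell (12.5%), with a median of 0.05. Of 25 snoRNA host genes, 9 rose (36%) and 3 fell (12%), with a median of 0.14. Of 26 long noncoding RNAs with an established name, 10 rose (38.5%) and 4 fell (15.4%), with a median of 0.30. Some of these 26, among them DSCAM-AS1, SNHG1 and MIR22HG, are also counted in the classes above. DSCAM-AS1, an estrogen receptor-driven RNA of luminal breast cancer, rose with BYL719 by 0.70 ± 0.10 in NF1KO (adjusted p = 0.000882) and 1.07 ± 0.09 in CTRL (adjusted p = 1.97e-06), and was lower in NF1KO in BYL719, with a log2 difference of -1.04 ± 0.09 (adjusted p = 1.92e-06). H19, an imprinted growth-related RNA, fell by 0.79 ± 0.13 in NF1KO (adjusted p = 0.00183) and by 1.77 ± 0.12 in CTRL (adjusted p = 4.75e-07), a difference of 0.98 ± 0.18 (adjusted p = 0.00465).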

How the data were processed

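PolyA RNA was sequenced as single 76-base reads from a stranded library kit, per the labels' protocols. STAR 2.5.2a, SAMtools 1.7, Picard 2.9.2, edgeR and the build hg38 are named in the submitters' processing notes. The counting tool, its strand setting and the annotation are not given in the sources used here. The authors deposited raw counts of 27864 genes by Entrez identifier in 11 libraries of 53283945 to 60148876 counts.

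The members and the gene lists were chosen with earlier results of these data known. Counts were filtered with filterByExpr (16081 genes, all 132 members included), scaled by TMM and tested in R 4.3.3 with the quasi-likelihood test of edgeR 4.0.16 on the 4 groups (7 residual degrees of freedom). The 2-sided p-values received a Benjamini-Hochberg adjustment across every gene tested, with calls at an adjusted p under 0.05. Standard errors are the log2 fold change over the root of F, without sign. Membership used unscaled CPM and levels per library are TMM-scaled CPM. Log2 CPM used a prior count of 2. The steps were tested on simulated counts. Named were NF1 and the 10 most abundant members, per comparison the 6 largest called rises and falls whose groups did not overlap, the 6 largest called differences of effect, members with a described function, those at the threshold, and up to 4 called long noncoding RNAs of other names, of which DSCAM-AS1 and H19 are described. A few of the neighbours and similar genes are not reported here. Positions, promoter windows and gene types come from RefSeq (GRCh38.p14), which matched all 132 members, and exons from GENCODE v29, which matched 126.

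Results were recomputed with upper-quartile or RLE scaling, unfiltered or with a filter of 1 CPM in 3 libraries, with DESeq2 1.42.0 and limma-voom (limma 3.58.1), with replicate numbers as blocks, on the compared libraries only, and without each library or both CTRL libraries numbered 1. The lone NF1KO DMSO library that then remains is taken to vary like the rest. Blocks in each line separately were added after the data were seen. They leave NF1KO BYL719 replicate 1 without a partner, and fewer residual degrees of freedom than the main test. Deviations of CTRL BYL719 and DMSO libraries from their group means correlated across genes at 0.595, 0.337 and 0.318 for equal numbers. Numbers 2 and 3 crossed also correlated, at 0.177 and 0.228. The block alternatives took equal numbers as pairs, from the data and not the labels. The main test on the 4 groups did not pair libraries, so the p-values and counts reported from it leave such pairing out. The 2 NF1KO pairs of equal number correlated at 0.0838 and 0.149, and NF1KO BYL719 replicate 1 with DMSO replicate 2 at 0.0804. With 2 NF1KO DMSO libraries the deviations mirror each other, so these values do not establish pairing in NF1KO. Figures were drawn with matplotlib 3.10.9.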

Additional observations from a re-analysis of the deposited data

Results flagged for a closer look

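For 6 members, leaving out LINC01016, which entered the set through its CTRL BYL719 libraries alone, the log2 effect of BYL719 differed between NF1KO and CTRL by a test of the difference itself (edgeR quasi-likelihood, adjusted over 16081 genes), in a family where 9.39% of all genes tested did so. In NF1KO relative to CTRL the effect was higher by 1.67 for LINC00664 and by 1.53 for LINC02568, and these calls held under each of the alternatives run. It was lower for the other 4, with differences of -1.06 for LINC00957, -0.94 for LINC00836, -0.76 for LINC01671 and -0.69 for LINC00888. Each of these 4 calls was lost when certain libraries were left out, and that of LINC00888 (adjusted p = 0.0482) was lost in 12 of 20 alternatives, with adjusted p up to 0.277.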

How the results depend on the processing

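The number of members called kept within 1.5 times of that reported under RLE and upper-quartile scaling, no filter, the filter of 1 CPM in 3 libraries and limma-voom, in all 5 comparisons, and no named value reversed under any alternative. Of 55 named values of members whose entry needed no difference, 39 were called under every alternative. For the difference of BYL719 effects, 7 members were called, against 12 with DESeq2, 13 with the replicate block and 25 with the block within each line. For BYL719 in NF1KO, 22 were called, against 53 with the block within each line and 40 without both CTRL libraries numbered 1. The replicate block gave 36 calls for NF1KO against CTRL in DMSO, 58 in BYL719, 66 for BYL719 in CTRL and 33 in NF1KO. Leaving out each library in turn gave 15 to 36 calls for NF1KO against CTRL in DMSO, 45 to 54 in BYL719, 51 to 59 for BYL719 in CTRL, 8 to 29 for BYL719 in NF1KO and 2 to 11 for the difference. The lowest counts for NF1KO against CTRL in DMSO, for BYL719 in NF1KO and for the difference came without an NF1KO DMSO library, where 1 library stands for the group. The cause of the other shifts was not tested. Depth limits members near 1 CPM, since 1 read is worth up to 0.0188 CPM.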
